A study of Mus musculus with 18 samples.

Results

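Dendritic cells of the mouse bladder were chosen by their transcripts from 7 single-cell libraries. A barcode was taken as a dendritic cell when it held at least 500 UMIs (unique molecular identifiers, 1 per captured transcript) and when H2-Ab1, H2-Aa, H2-Eb1 and Cd74 made up at least 1% of them. It also had to hold at least 1 UMI of Cd209a, Flt3, Xcr1, Clec9a or Ccr7, fewer than 3 UMIs of C1qa, C1qb and C1qc together, and none of the B cell genes Cd79a and Ms4a1. This gave 859 dendritic cells among 35289 barcodes, or 2.43%. Members were thus selected on the measured UMIs of 14 genes, so their levels are a description and were not tested. The comparison class, called C1q cells below, met the same limits on UMIs, on antigen-presentation genes and on B cell genes but held 3 or more UMIs of the C1q genes, which macrophages make. It numbered 1323 cells.

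Dendritic cells take up antigen in tissue, load its peptides onto MHC class II and carry them to lymph nodes to activate T cells. Conventional dendritic cells of type 1 carry XCR1 and CLEC9A, depend on the transcription factors IRF8 and BATF3 and present antigen from dead cells to CD8 T cells. Type 2 cells carry CLEC10A, MGL2 and in many tissues CD209A, and mainly serve CD4 T cells, while either type turns on CCR7, the receptor for lymph node chemokines, as it matures and leaves the tissue.

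The study profiled bladders of C57BL/6 mice with RNA sequencing of single cells, nuclei, tissue sections and bulk tissue. Of the 5 whole-bladder cell libraries, 1 was labelled with 3 males of 22 months, 1 with 3 males of 3 months, and 3 with 2 females and 2 males each, at 12, 12 and 24 months. A detrusor-only library (the muscular wall) was labelled with 3 females of 14 months and a detrusor-enriched library with 2 females and 2 males of 14 months. The latter was titled whole bladder, detrusor enriched, and is grouped below with the detrusor-only library as the detrusor libraries. The 3 intact and 3 dissociated bulk libraries were each labelled with 3 females of 12 months. All animals were of 1 strain with no treatment or engineered allele in the labels, and each cell library is a pool, so a library and not an animal is the unit of replication. Values over libraries are given in the order 22-month male, 3-month male, first 12-month, second 12-month, 24-month, detrusor-only and detrusor-enriched.

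Dendritic cells numbered 421, 141, 89, 32, 92, 33 and 51 in that order, and C1q cells 419, 354, 34, 7, 48, 301 and 160. Their median UMIs ran from 2437 in the 3-month male library to 14165 in the detrusor-enriched one. The tables of the male libraries stand apart, since they list other genes, have barcodes of 14 rather than 16 bases and hold 0 mitochondrial counts. At most 64 barcodes, 1.00% of the smaller library, were shared by any 2 libraries, and none of those was a dendritic cell in both. Values near the limits of the gates were as follows. No C1q UMI was found in 665 dendritic cells, 160 had 1 and 34 had 2, and of 349 barcodes that failed only by holding 3 or more, 10 held 3 or 4. The antigen-presentation genes held 1 to 2% of UMIs in 18 dendritic cells, and 12 barcodes failed only by lying at 0.5 to 1%. A single UMI of the 5 dendritic genes placed 104 cells in the class, 224 barcodes failed only by having none, and 76 failed only by a B cell UMI.

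The label was checked against the markers given for it. H2-Ab1 had a UMI in 99.7% of the dendritic cells, Cd209a in 73.0%, Flt3 in 34.2% and Ccl17 in 21.0%. Only Ccl17, a chemokine that attracts CCR4-bearing T cells, lies outside the gates. It had a UMI in 1.06% of C1q cells and in 0.524% of 24428 non-immune barcodes, whose median depths per library ran from 1851 to 15682 UMIs. With each barcode thinned to 1000 UMIs the Ccl17 shares were 12.2% of dendritic, 0.709% of C1q and 0.157% of non-immune barcodes. Zbtb46, a transcription factor of conventional dendritic cells, had a UMI in 10.0% of dendritic, 2.04% of C1q and 1.68% of non-immune barcodes, and in 2.85%, 0.394% and 0.300% after thinning. It was at 0 in the 32 cells of the second 12-month library. Siglech, a marker of plasmacytoid dendritic cells, was found in 2.33% of the dendritic cells and 19.0% of C1q cells when the libraries were pooled. Over the 7 libraries its median share was 3.26% of dendritic cells (0 to 6.25%) and 4.52% of C1q cells (0 to 57.1%), or 0.763 and 0.971% after thinning, so the pooled gap was far wider than that between the medians. Cd207, the Langerhans cell lectin, was found in 0.698% of dendritic cells.

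The MHC class II genes that anchor the gate lie together on mouse chromosome 17 and are switched on through a shared promoter module, in which an X box lies upstream of a Y box with the core ATTGG. Factors bound to these boxes recruit the coactivator CIITA, which itself does not bind DNA. The promoters of this family are shown because H2-Oa, H2-Ob and H2-DMb2 were higher in dendritic than in C1q cells, while the other genes shown belong to the gate or to the same family. RefSeq promoter entries (GRCm38.p6) were found for 7 of 9 genes looked up, and H2-Ab1 and Ciita had none in the table used. Below, the 150 bases before each gene's start are written 5′ to 3′ on the gene's strand, with GATTGG or its complement CCAATC and the longer motif AAC, any 2 bases, ATGATG in capitals.
H2-Aa (chr17:34287824-34287973, minus strand): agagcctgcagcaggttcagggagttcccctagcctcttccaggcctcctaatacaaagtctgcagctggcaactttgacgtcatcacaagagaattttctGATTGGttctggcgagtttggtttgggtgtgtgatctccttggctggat
H2-Eb1 (chr17:34305717-34305866, plus strand): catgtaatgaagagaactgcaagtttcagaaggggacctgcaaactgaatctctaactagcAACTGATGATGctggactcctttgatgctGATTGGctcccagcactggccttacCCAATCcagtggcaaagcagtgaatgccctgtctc
H2-DMb1 (chr17:34153041-34153190, plus strand): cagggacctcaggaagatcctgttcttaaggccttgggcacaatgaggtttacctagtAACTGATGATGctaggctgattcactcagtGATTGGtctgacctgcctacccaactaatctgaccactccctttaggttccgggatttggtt
H2-DMb2 (chr17:34145099-34145248, plus strand): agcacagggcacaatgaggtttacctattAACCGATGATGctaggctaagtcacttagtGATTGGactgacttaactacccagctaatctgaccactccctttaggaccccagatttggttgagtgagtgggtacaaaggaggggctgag
H2-Oa (chr17:34092229-34092378, plus strand): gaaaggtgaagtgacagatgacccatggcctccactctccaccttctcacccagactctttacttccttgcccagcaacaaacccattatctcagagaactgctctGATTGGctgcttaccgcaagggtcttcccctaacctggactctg
H2-Ob (chr17:34238755-34238904, plus strand): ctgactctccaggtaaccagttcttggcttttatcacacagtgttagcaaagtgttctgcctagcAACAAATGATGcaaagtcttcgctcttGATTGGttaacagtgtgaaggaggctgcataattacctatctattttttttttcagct
GATTGG began 49 bases before the start of H2-Aa, 62 before H2-DMb1, 91 before H2-DMb2, 44 before H2-Oa and 58 before H2-Ob. H2-Eb1 held it at 60 bases and the complement at 35. Of the 2 entries of H2-DMa, 1 held it, at 199 bases and so outside the stretch shown for the others. A gene was counted if any of its entries matched, while the percentages here count single windows, so the 2 are not the same measure. GATTGG on either strand was by that count found within 250 bases of the start in 7 of 7 genes, against 14.6% of 32851 promoter windows of the same length. TGATTGG, which contains it, was found in 6 of 7 against 7.23%, and the shorter ATTGG in 7 of 7 against 33.8%. The longer motif, searched on both strands and written down after these sequences had been read, was found in 4 of 7 against 0.119%. It began 89 bases before the start of H2-Eb1, 92 before H2-DMb1, 121 before H2-DMb2 and 85 before H2-Ob. H2-DMb1 and H2-DMb2 are near-identical neighbours, so they are not independent matches and reads may be split between their counts.

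Levels of the genes that chose the cells varied widely between libraries. Counts summed over the dendritic cells of a library and scaled to the total UMIs of those cells as CPM put H2-Ab1 at 33778, 38907, 19849.8, 20317, 19034, 11115 and 11184. Cd74, the invariant chain that escorts class II, stood at 86794, 125773, 52253, 55359.9, 51095, 26955 and 23104 CPM. Both were highest in the 2 male libraries, intermediate in the 3 mixed whole-bladder libraries and lowest in the 2 detrusor libraries, with no overlap between these sets. In C1q cells of the same libraries H2-Ab1 ran in a similar order, at 21904, 20044, 16569, 17554, 13781, 6383 and 8526 CPM, and lay below the dendritic value in every library.

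Cd209a, a C-type lectin, was present at 2184, 3212, 1313, 1159, 804, 395 and 519 CPM, again highest in the male and lowest in the detrusor libraries. Flt3, the receptor whose ligand drives dendritic cell development, lay at 55.6 to 142 CPM. Xcr1, the receptor for the chemokine XCL1, lay at 13.3 to 124 CPM and Clec9a, a receptor for dead cells, at 17.4 to 96.3. Ccr7 ran at 213, 139, 192, 379.8, 226, 685 and 93.3 CPM, with the detrusor-only library highest and the detrusor-enriched library lowest. C1q cells held at most 6.19 CPM of Flt3, 0.76 of Xcr1, 5.62 of Clec9a and 6.19 of Ccr7.

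Cd209a was not confined to the dendritic gate. It had a UMI in 24.9% of C1q cells, from 0 of 7 cells in the second 12-month library to 54.8% of 301 cells in the detrusor-only library. After thinning to 1000 UMIs it was found in 56.0% of dendritic cells, 11% of C1q cells and 0.572% of non-immune barcodes. The thinned share of C1q cells ran from 0 to 19.0% over the libraries, with a median of 14.6%, so much of the unthinned range went with depth. In all, 349 of 1323 C1q cells, 26.4%, held a UMI of 1 of the 5 dendritic genes, 330 of them of Cd209a, 12 of Flt3, 12 of Ccr7, 6 of Clec9a and 3 of Xcr1. Neighbouring lectins of the Cd209 family resemble each other, so reads may be split between them.

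**Figure D1:**
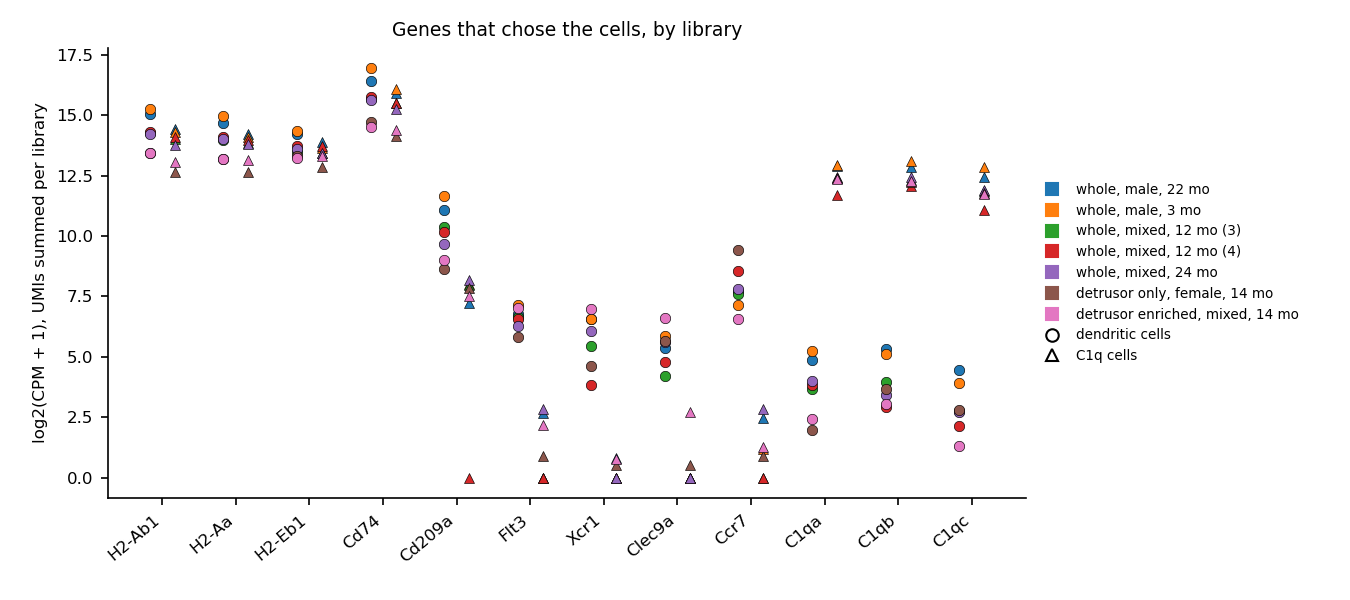
Levels of the genes that chose the cells, as log2(CPM + 1) of UMIs summed over the dendritic cells (circles) or C1q cells (triangles) of each of the 7 libraries (colours). H2-Ab1 in dendritic cells runs from 11115 CPM in the detrusor-only library to 38907 in the 3-month male library, and the C1q genes separate the classes by construction.

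The dendritic share of the 2 antigen-presenting classes was 50.1% in the 22-month male library (exact 95% Clopper-Pearson interval 46.7 to 53.6%) and 28.5% in the 3-month male library (24.5 to 32.7%). It was 72.4% (63.6 to 80.0%) and 82.1% (66.5 to 92.5%) in the 12-month libraries and 65.7% (57.2 to 73.5%) in the 24-month library. In the detrusor-only library it was 9.88% (6.90 to 13.6%) and in the detrusor-enriched library 24.2% (18.6 to 30.5%). Counted against C1q cells without a UMI of the 5 dendritic genes, the share was 19.8% in the detrusor-only and 31.9% in the detrusor-enriched library, and 31.5 to 82.1% in the whole-bladder ones. This count depends on depth, since a deep cell can more easily hold such a UMI. C1q cells had a median of 8052 UMIs in the detrusor-only and 2317.5 in the 3-month male library. The intervals cover counting error only. By either count the 3 mixed whole-bladder libraries had the highest shares and the detrusor-only library the lowest.

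Older whole bladders (22 and 24 months) did not differ from younger ones (3, 12 and 12 months) in this share beyond the spread of the libraries. The mean share was 57.9% ± 11 (SD, n = 2) in the older and 61.0% ± 28.5 (SD, n = 3) in the younger libraries, a difference of -3.05 percentage points (exact permutation test, two-sided, p = 1.0). Within the male pools the older library had the higher share (50.1 against 28.5%), and within the mixed pools it had the lowest (65.7 against 72.4 and 82.1%). With 2 against 3 libraries this test cannot give a p below 0.2. The direction turned when the 22-month male library (4.75 points), the first 12-month library (2.65) or the second 12-month library (7.50) was left out, and the difference was -19.3 points without the 3-month male library and -10.8 without the 24-month library.

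**Figure D2:**
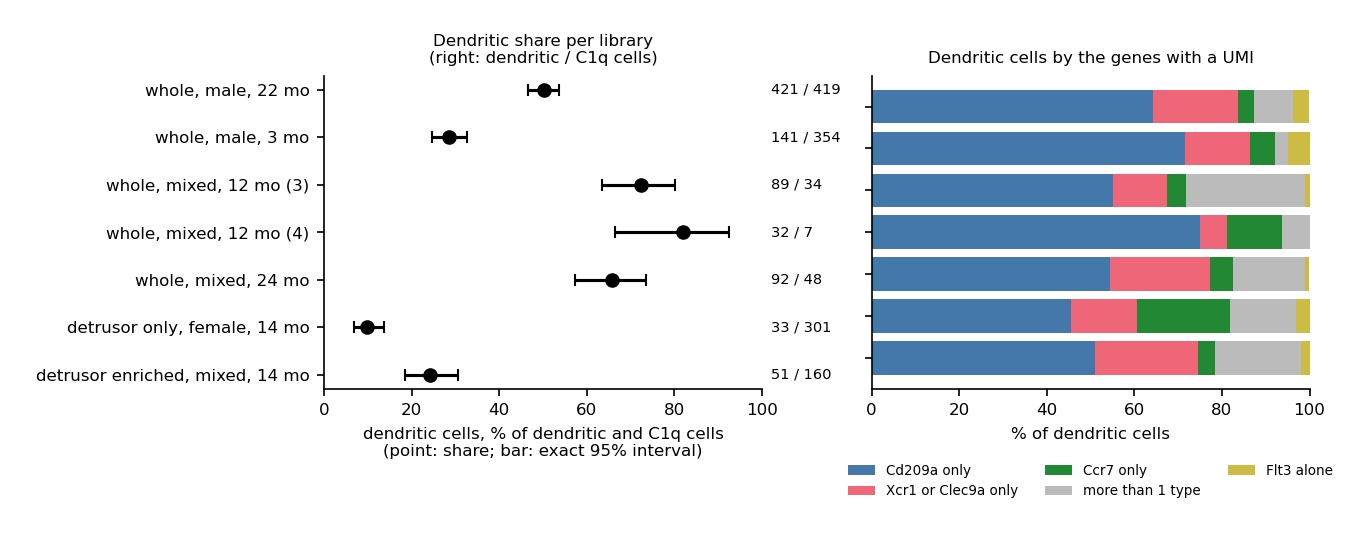
Left, dendritic cells as a percentage of dendritic and C1q cells in each library with exact 95% intervals (cell numbers at the right), from 9.88% in the detrusor-only to 82.1% in the second 12-month library. Right, the dendritic cells of each library split by which of Cd209a, Xcr1 or Clec9a, Ccr7 and Flt3 had a UMI.

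Dendritic cells were then compared with C1q cells on genes outside the gates, over the 6 libraries with at least 10 cells of each class. The second 12-month library, with 7 C1q cells, was left out. Of 5879 genes tested, 966 were higher and 952 lower in dendritic cells (edgeR quasi-likelihood test, library as a block, Benjamini-Hochberg adjusted p under 0.05), which is 32.6% of the genes in either direction, 16.4% higher and 16.2% lower. The gates choose cells by genes, so genes that go with a gate gene differ through that choice, and the p-values measure how repeatable a difference was over libraries of gated cells. CPM values are given below as the lowest, median and highest of the 6 libraries, and fold changes as log2 of dendritic over C1q cells. A gene can pass the filter on low counts through the class where it is high, so the counts and medians below describe the genes tested and not the whole lists. Fitted without library as a term, 685 genes were called, 254 higher and 431 lower. Among genes named below, the calls for B2m, Bst2, Ccl17, Cd80, Cd86, Ciita, Ctss, Cxcl10, H2-DMa, H2-DMb1, H2-K1, Icosl, Irf4, Irf7, Itgam, Itgax, Jun, Krt15, Mki67, Nr4a1, Plac8, S100a4, Spi1, Tcf4, Tnfsf9 and Top2a were then lost, with adjusted p from 0.0517 to 0.844.

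Of 12 genes in the dendritic lineage list 10 were tested, 7 were called higher and none lower, with a median log2 fold change of 1.14 against 0.02 over all genes tested. Dpp4 (CD26), a surface peptidase of conventional dendritic cells, was at 53.5, 66.9 and 117 CPM in dendritic cells and 1.24, 2.62 and 6.84 in C1q cells (log2 fold change 4.71, SE 0.37, adjusted p = 3.8e-07). The 2 sets of libraries did not overlap. Cd24a, a surface glycoprotein of type 1 cells, was at 111, 135 and 217 against 3.72, 19.2 and 44.4 CPM (log2 fold change 3.29, SE 0.36, adjusted p = 5.9e-05), also without overlap. Cbfa2t3, a corepressor, and the lineage factors Irf4 and Irf8 had log2 fold changes of 2.63, 1.57 and 0.92 and were higher in 6 of 6 libraries. The call for Irf8 was lost with each barcode thinned to 500 UMIs (0.48, adjusted p = 0.103). Itgax (CD11c) and Spi1 (PU.1), at 1.36 and 0.34, were also called. The call for Itgax was lost (adjusted p up to 0.12) without the 22-month male, the 3-month male or the detrusor-enriched library, and that for Spi1 without the 3-month male, the first 12-month or the 24-month library and with barcodes thinned to 500 UMIs. Both were also lost with C1q cells without a UMI of the dendritic genes. Batf3 and Id2 were not called, though Batf3 passed (adjusted p up to 0.0464) with no filter on low counts, with C1q cells taken without an MHC II minimum and without the 24-month library. The list of type 2 genes was split, with 10 of 15 tested, 2 higher, 2 lower and a median of -0.18. The decoy receptor Il1r2 (4.53) and Tnfsf9 were higher, and the inhibitory receptor Sirpa (-1.77) and the integrin chain Itgam (-0.62) lower.

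The machinery that loads peptides onto class II differed within itself. Of 15 genes 10 were tested, 6 were higher and 2 lower, with a median of 0.72. H2-Oa and H2-Ob, the subunits of the DO protein that restrains peptide exchange, showed the widest gap. H2-Oa was at 120.0, 296 and 699 CPM in dendritic cells and 0, 6.02 and 22.2 in C1q cells (log2 fold change 5.51, SE 0.38, adjusted p = 2.5e-06). H2-Ob was at 61.5, 110.0 and 173 against 0, 5.52 and 8.88 CPM (log2 fold change 4.36, SE 0.29, adjusted p = 5.1e-08). Neither gene overlapped between the classes in any library. The DM subunits, which catalyse the exchange, were also higher, with log2 fold changes of 3.49 for H2-DMb2, 0.75 for H2-DMa and 0.68 for H2-DMb1, each in 6 of 6 libraries.

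Ciita, the master coactivator of the class II genes, was higher in 5 of 6 libraries (log2 fold change 0.83, SE 0.26, adjusted p = 0.027). This call was lost with DESeq2 and without the 22-month male, the 3-month male or the detrusor-only library. The proteases of the same list went the other way. Ctss, which trims the invariant chain, was at 606, 1109 and 2348 CPM in dendritic cells and 990.2, 2486 and 3923 in C1q cells (log2 fold change -1.02, SE 0.09, adjusted p = 8.5e-07), lower in 6 of 6 libraries. Lgmn, the asparaginyl endopeptidase, was at 48.1, 83.8 and 227 against 660.4, 906 and 2418 CPM (log2 fold change -3.51, SE 0.13, adjusted p = 1.5e-10), without overlap.

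For class I presentation 13 of 13 genes were tested, 6 were higher and 2 lower, with a median of 0.24. The immunoproteasome subunit Psmb9 (1.33), the peptide transporter Tap1 (1.17) and Rab43 (1.57), a vesicle GTPase used in cross-presentation, were higher. The class I light chain B2m was lower in 6 of 6 libraries, at 791, 2808 and 4093 against 1254, 4542 and 5877 CPM (log2 fold change -0.62, SE 0.08, adjusted p = 2.6e-05). H2-K1 was also called lower (-0.27), but not without the first 12-month or the detrusor-enriched library, with no filter on low counts or with C1q cells taken without an MHC II minimum, and its reads may be shared with related class I genes.

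Co-stimulatory genes were split. Tnfsf9 (4-1BB ligand) was at 276, 462 and 2544 CPM in dendritic and 73.0, 177 and 808 in C1q cells (log2 fold change 1.63, SE 0.15, adjusted p = 2.0e-06), and Icosl was higher by 0.90. Cd80 was called higher (1.19, adjusted p = 0.047) but was lower than in C1q cells in both male libraries, and lost its call (adjusted p up to 0.235) without the first 12-month or the 24-month library, with DESeq2, with an MHC II minimum of 2%, with C1q cells without a UMI of the dendritic genes, and without barcodes rich in non-immune genes. Cd86 was lower in 6 of 6 libraries (log2 fold change -0.80, SE 0.15, adjusted p = 7.0e-04), a call also lost with C1q cells taken without an MHC II minimum (adjusted p = 0.158). Of 8 tested genes in the list 3 were higher and 2 lower, with a median of 0.07.

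Chemokines separated the classes in both directions. Of 17 genes 16 were tested, 3 were higher and 11 lower, with a median of -1.84. Ccl22, like Ccl17 a ligand of CCR4, was at 8.78, 175 and 234 CPM in dendritic cells and 0, 6.51 and 21.3 in C1q cells (log2 fold change 3.80, SE 0.29, adjusted p = 2.8e-07). Its lowest dendritic value, in the detrusor-only library, was below the highest C1q value. Ccl5, a chemokine that attracts T cells, was higher by 3.09 (adjusted p = 0.014, or 0.058 without the detrusor-only library). Ccl17 was higher in 6 of 6 libraries (log2 fold change 3.19, SE 0.82, adjusted p = 0.03), but its level ran from 11.7 to 864 CPM. That call was lost (adjusted p up to 0.34) without the 22-month male, the 3-month male, the detrusor-only or the detrusor-enriched library, with no filter on low counts, and with C1q cells without a UMI of the dendritic genes.

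Of the chemokines that were lower, Ccl12, a monocyte attractant, was at 0, 0 and 8.53 CPM in dendritic cells and 369, 628 and 1515 in C1q cells (log2 fold change -8.57, SE 0.30, adjusted p = 1.3e-10). Ccl8 was at 1.46, 5.65 and 14.2 against 221, 1724 and 2907 CPM (log2 fold change -7.78, SE 0.40, adjusted p = 1.6e-06). Neither overlapped. Ccl24, Cxcl2 and Ccl2 had log2 fold changes of -6.20, -3.75 and -3.36. Several of these genes have close paralogs among which reads may be split.

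Of the migration receptors 8 of 11 were tested, 1 was higher and 2 lower, with a median of -0.14. Itgb7, the β7 integrin chain, was at 231, 322 and 435 CPM in dendritic cells and 7.73, 12.2 and 40 in C1q cells (log2 fold change 4.38, SE 0.21, adjusted p = 2.2e-09), without overlap. The fractalkine receptor Cx3cr1 (-3.06) and Cxcr4 (-1.53) were lower. Ccr2, the receptor for CCL2, was not called (0.72, adjusted p = 0.12), but passed (adjusted p up to 0.0248) with no filter on low counts, with C1q cells taken without an MHC II minimum, with barcodes thinned to 500 UMIs and without the 24-month library.

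Among 14 cytokine genes 9 were tested, with 1 higher, 2 lower and a median of 0.00. Il1b was abundant in both classes, at 2105, 2321 and 3912 CPM in dendritic cells and 318, 1020.4 and 1921 in C1q cells. It was higher in 6 of 6 libraries (log2 fold change 1.42, SE 0.37, adjusted p = 0.031), but not called (adjusted p up to 0.091) without the first 12-month, the 24-month or the detrusor-enriched library or with no filter on low counts. Osm, which encodes oncostatin M, was lower (log2 fold change -2.57, SE 0.22, adjusted p = 5.5e-07).

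Of 26 macrophage genes in the list 23 were tested and 22 were lower in dendritic cells, and the phagocytic receptor Timd4 was not called. Adgre1 (F4/80) was at 5.86, 21.5 and 45.5 CPM against 217, 415 and 536, a log2 fold change of -4.17, and the M-CSF receptor Csf1r had a log2 fold change of -4.13. Apoe, the apolipoprotein, stood at 19803 CPM or more in C1q cells and at 736 or less in dendritic cells. Lyz2 (-2.61) and Cd68 (-1.80) were also lower. The gate on C1q UMIs bears on this list directly, and so does the filter, which Lyve1 passed with 846 UMIs in C1q and 3 in dendritic cells.

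Of 16 lysosomal genes, all tested, 13 were lower and 1 higher, with a median of -1.47. The cathepsins Ctsb (-3.35) and Ctsd (-2.79) were lower in 6 of 6 libraries. The exception was Cst3 (cystatin C), an inhibitor of cysteine cathepsins, at 6339, 12286 and 17591 CPM in dendritic cells and 4118, 4814 and 5696 in C1q cells (log2 fold change 1.2, SE 0.19, adjusted p = 0.0014), without overlap. Of 21 pattern recognition genes 13 were tested, with 7 lower and none higher. Tlr7, the endosomal sensor of single-stranded RNA, gave 1 UMI in the dendritic cells and 399 in the C1q cells (266-fold, 47.4 to 10514, from 399 and 1 UMIs), where intervals on such low counts are exact 95% ones and cover counting error only. The lectin Clec4n had a log2 fold change of -3.34.

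Cell-cycle genes were higher in dendritic cells. Of 9 tested 6 were higher and none lower, with a median of 1.30. Top2a, needed to untangle chromosomes, was at 19.9, 54.2 and 139 CPM in dendritic cells and 0, 16.8 and 34.0 in C1q cells (log2 fold change 2.31, SE 0.55, adjusted p = 0.012), and the proliferation marker Mki67 was higher by 1.11 in 6 of 6 libraries. Shares of cells with a UMI were small, at 7.10% for Mki67 in dendritic cells (1.78% after thinning), 4.01% in C1q cells (0.709%) and 0.422% in non-immune barcodes (0.0492%). Of 8 interferon response genes tested 4 were lower, among them Irf7 (-1.52), Bst2 (-0.90) and Cxcl10 (-1.24), and none was higher.

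By the rule on size of change, the genes named as highest in dendritic cells were Gpr171 (5.80), P2ry10 (5.65), H2-Oa, Klrd1 (4.91), Dpp4, Cd244 (4.56), Il1r2 (4.53), Gcnt2 (4.43), Itgb7 and H2-Ob. Gpr171 and P2ry10 are orphan or lipid-responsive G protein-coupled receptors, Klrd1 (CD94) and Cd244 are better known from NK cells, and Il1r2 is a decoy receptor for IL-1. Il1r2 was at 64.2, 173 and 301 CPM in dendritic cells and 3.1, 5.23 and 9.88 in C1q cells (log2 fold change 4.53, SE 0.23, adjusted p = 3.9e-09). The lowest were Cd209f, Ccl12, Mmp9 (566-fold, 156 to 4678, from 1701 and 2 UMIs), Pla2g2d (-8.22), Pf4 (-8.15), Folr2 (-7.94), C5ar1 (-7.91), Fcna (-7.89), Ccl8 and Stab1 (-7.76). Cd209f, a relative of the gate gene Cd209a, gave 3 UMIs in the dendritic cells and 5580 in the C1q cells (1238-fold, 423 to 6004, from 5580 and 3 UMIs).

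Markers of other cells were measured beside these differences. The 12 urothelial genes summed to between 0 and 3916 CPM in dendritic cells and between 2.15 and 2217 in C1q cells, and 1 of 11 tested, the basal keratin Krt15, was called higher (0.48). That call was lost in 11 alternatives and its sign turned with C1q cells taken without an MHC II minimum (-0.27). None of 7 fibroblast and 3 smooth muscle genes tested was called. Monocyte genes were split, with 3 of 7 tested higher, 2 lower and a median of 0.72. Ms4a4c (2.14) was higher and F13a1 (-4.72) lower, while the calls for Plac8 and S100a4 were lost when any 1 of several libraries was left out. Of 4 plasmacytoid genes tested Bst2 and Tcf4 (-0.74) were lower, the latter not without the detrusor-enriched library or with C1q cells taken without an MHC II minimum, of 2 B and plasma genes Cd79b was lower (-2.63), and the 1 neutrophil gene tested, Mmp9, was lower (566-fold, 156 to 4678, from 1701 and 2 UMIs). The 10 T or NK genes summed to 12.3 to 190.5 CPM in dendritic and 18.5 to 95.8 CPM in C1q cells. Genes of the early response to tissue dissociation were mostly lower in dendritic cells, with 15 of 20 lower and 2 higher (median -0.58), for example Fos (-0.97) and Jun (-1.22) lower and Nr4a1 (0.83) higher. Their part in the differences was not tested.

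**Figure D3:**
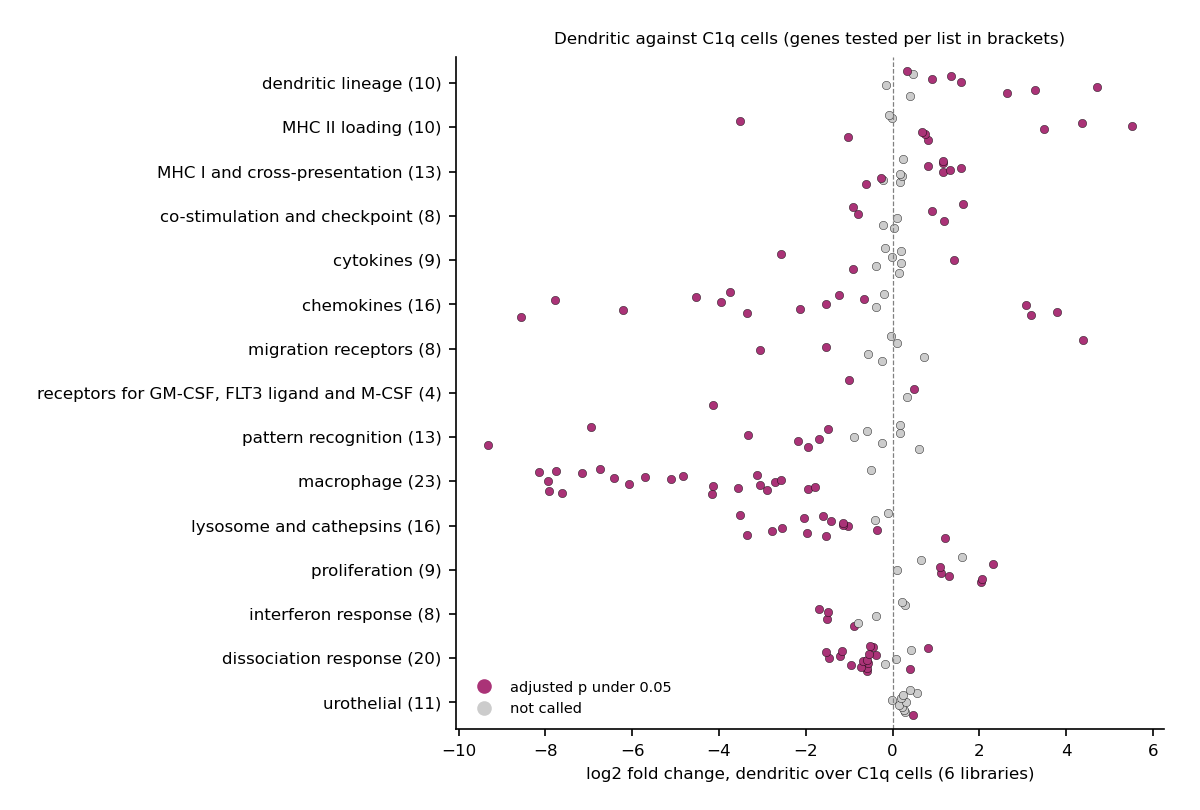
Log2 fold change of dendritic over C1q cells for each tested gene (points) of 15 lists, with the number tested in brackets and called genes in purple. Adgre1 lies at -4.17 among the macrophage genes and Dpp4 at 4.71 among the dendritic lineage genes.

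The dendritic cells fell into sets by the gate genes. Cd209a without Xcr1, Clec9a or Ccr7 was found in 536 cells (62.4%), called Cd209a cells. Xcr1 or Clec9a without Cd209a or Ccr7 was found in 153 (17.8%), called Xcr1/Clec9a cells, and Ccr7 without the others in 46 (5.36%), called Ccr7 cells. A further 97 cells held more than 1 kind and 27 held Flt3 alone. Both Cd209a and Ccr7 had a UMI in 65 cells, and Xcr1 and Clec9a together in 67. Since 1 UMI decides, a cell of low depth can fall outside its set, and a deep cell can hold more than 1 kind and leave it. The sets were chosen by these genes, so genes that go with them can differ between sets through that choice.

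Cd209a cells were the largest set in every library, with shares of 64.4, 71.6, 55.1, 75.0, 54.3, 45.5 and 51.0%. Xcr1/Clec9a cells made up 19.2, 14.9, 12.4, 6.25, 22.8, 15.2 and 23.5%. Ccr7 cells made up 3.80, 5.67, 4.49, 12.5, 5.43, 21.2 and 3.92%. The highest Ccr7 share, 7 of 33 cells in the detrusor-only library, had an exact 95% interval of 8.98 to 38.9%. It was 2.19 to 6.10% in the 22-month male library, and the detrusor-enriched library had 2 of 51 cells (0.478 to 13.5%). These intervals cover counting error within a pool only and do not set libraries apart. Depth differed too, with a median of 10354 UMIs in dendritic cells of the detrusor-only and 3270 in those of the 22-month male library. Cells with a Ccr7 UMI, whatever else they held, made up 10.2, 7.09, 29.2, 15.6, 15.2, 33.3 and 15.7% of the dendritic cells. In the first 12-month library 22 of 26 such cells also held Cd209a and so lie outside the set. With each barcode thinned to 1000 UMIs, cells with a Ccr7 UMI made up 3.05 to 24.2% per library, with a median of 9.78%.

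The antigen-presentation genes of the gate held a median of 18.1% of UMIs in Cd209a cells, 12.7% in Xcr1/Clec9a cells and 7.97% in Ccr7 cells, pooled over the libraries. The median of Cd209a cells was the highest in 7 of 7 libraries. Xcr1/Clec9a cells were above Ccr7 cells in 4 libraries but below them in the second 12-month and both detrusor ones. Flt3 had a UMI in 24.8% of Cd209a cells, 51.6% of Xcr1/Clec9a cells and 28.3% of Ccr7 cells, or 7.20, 15.2 and 10.0% after thinning, again pooled. By library the shares ran from 18.8 to 60.0%, 20 to 100% and 14.3 to 75.0%. They were highest in Xcr1/Clec9a cells in 5 of 7 libraries, in Ccr7 cells in the 3-month male and in Cd209a cells in the detrusor-only library. Median depths were 3512, 4309 and 4108 UMIs. The plasmacytoid marker Siglech and the Langerhans marker Cd207 were at 0 in the 46 Ccr7 cells. By counting error alone that allows up to 6.52% of cells with a UMI, which is not a limit on cells that express either gene.

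Cd209a cells and Xcr1/Clec9a cells were compared over 6 libraries, with 512 and 151 cells. Of 2573 genes tested 325 were higher and 219 lower in Cd209a cells by the same test, which is 21.1% in either direction, 12.6% higher and 8.51% lower. Of the type 2 list 7 of 15 genes held enough UMIs to be tested and 6 were called higher in Cd209a cells. Of the type 1 list 9 of 15 were tested and 8 were called lower. A gene can pass the filter through the set where it is high, so these counts describe the genes tested and not the lists.

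Mgl2, a galactose-binding lectin of type 2 cells, was at 836, 1468 and 1708 CPM in Cd209a cells and 0, 18.4 and 37.7 in Xcr1/Clec9a cells (lowest, median and highest library; log2 fold change 5.97, SE 0.36, adjusted p = 1.2e-07). Its relative Clec10a (5.00), the integrin chain Itgam (43.2-fold, 11.8 to 359, from 210 and 2 UMIs), Tnfsf9 (5.47) and the ribonuclease Ear2 (4.11) were higher in 6 of 6 libraries. In the comparison with C1q cells Mgl2 (0.28) and Clec10a (0.04) had not been called. Mgl2 was called there in 4 alternatives (adjusted p = 0.00467 to 0.0189), with no filter on low counts, with C1q cells taken without an MHC II minimum or without a UMI of the dendritic genes, and with barcodes thinned to 500 UMIs. Clec10a had a UMI in 49.4% of dendritic and 46.2% of C1q cells.

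Irf8, the factor that type 1 cells depend on, was at 8.45, 16.9 and 70.0 CPM in Cd209a cells and 1098, 1739 and 2764 in Xcr1/Clec9a cells (log2 fold change -5.89, SE 0.29, adjusted p = 1.7e-08). The adhesion molecule Cadm1 (-4.03), the double-stranded RNA sensor Tlr3 (-4.49), Wdfy4 (-2.08), which cross-presentation requires, and the hydrolases Ppt1 (-4.06) and Naaa (-2.18) were also lower, each without overlap. Batf3 did not differ detectably (-0.16, adjusted p = 0.7), at 66.0, 111 and 145 CPM in Cd209a cells and 69.8, 113 and 176 in Xcr1/Clec9a cells.

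Of 8 chemokines tested 4 were higher in Cd209a cells and none was lower. Ccl9, a ligand of CCR1, was at 578, 754 and 924 CPM in Cd209a cells and 0, 0 and 9.72 in Xcr1/Clec9a cells (242-fold, 82.6 to 1173, from 1761 and 3 UMIs). Ccl17, Ccl3 and Ccl6 followed with log2 fold changes of 4.18, 3.52 and 2.49, and Il1b was higher by 2.12. Lysosomal genes were higher in 11 of 16 cases and lower in 2 (median 0.89), with Ctss at 1.57, Lgmn at 1.83 and Ctsa at 2.35. Cst3 went the other way, at 4532, 8589 and 10911 CPM in Cd209a cells and 13744, 24991 and 33663 in Xcr1/Clec9a cells (log2 fold change -1.53, SE 0.11, adjusted p = 5.4e-09).

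Class I presentation genes were lower in 5 of 12 cases and higher in 2 (median -0.16), with Psmb9 (-1.91) and Tap2 (-1.66) lower in 6 of 6 libraries. Of the class II loading genes H2-DMb2 was higher in Cd209a cells (2.16) and H2-DMa was not called (0.05). The rule named Ccl9, Mgl2, Retnla (5.73), Mcemp1 (5.69) and Zeb2 (5.66) as highest. It named P2ry14 (137-fold, 37.1 to 1147, from 113 and 2 UMIs), Irf8, Ifi205 (-4.90), Gpr65 (-4.56) and Rab7b (-4.54) as lowest. Zeb2 encodes a repressor found in type 2 rather than type 1 cells, and P2ry14 the receptor for UDP-glucose.

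Other signals moved with this contrast. Genes of the dissociation response were higher in Cd209a cells in 13 of 20 cases and lower in none (median 0.75), for example the NF-kB inhibitor Nfkbia (3.62). The urothelial list summed to 0 to 3842 CPM in Cd209a cells and 0 to 2470 in Xcr1/Clec9a cells, and 4 of its 7 tested genes were higher, among them Krt15 (1.30), whose call was lost without barcodes rich in non-immune genes. Of the monocyte genes 3 of 6 tested were higher, with the calcium-binding S100a4 at 4.53. Of 3 plasmacytoid genes tested 2 were higher (median 0.92) and of 3 macrophage genes 1 was higher (0.46), with 0 lower in either list. Their part in the result was not tested.

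Ccr7 cells were few, so Cd209a cells could be set against them over only 4 libraries (22-month male, 3-month male, 24-month and detrusor-only), with 437 and 36 cells. The 8 Ccr7 cells of the 3-month male library had a median of only 643 UMIs. Of 1379 genes tested 77 were higher and 84 lower in Cd209a cells, which is 11.7% in either direction, 5.58% higher and 6.09% lower. The count fell to 68 without the 22-month male library and to 90 without the 24-month library. Of the 25 genes of the mature, migratory program 16 held enough UMIs to be tested. Of these 14 were called lower in Cd209a cells, but a gene can pass that filter through the set where it is high, so the count is a description of the genes tested and not of the list.

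Fscn1 (fascin), which bundles actin in the processes of mature dendritic cells, was at 14.4, 34.9, 12.3 and 0 CPM in the Cd209a cells of these libraries and 2850.0, 3437, 1218 and 559 in the Ccr7 cells (log2 fold change -6.94, SE 0.43, adjusted p = 2.8e-07). Ccl5 was at 122, 435, 46.1 and 85.6 against 14601, 8794, 6214 and 1610.3 CPM (log2 fold change -5.51, SE 0.75, adjusted p = 0.0079). Neither gene overlapped, and both were lowest among Ccr7 cells in the detrusor-only library. Over all dendritic cells, a Fscn1 UMI was found in 9.08%, no more often than in non-immune barcodes (26.4%), and in 58.7% of Ccr7 cells.

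Apol7c, an apolipoprotein L that acts on the endosomal membrane in cross-presentation, gave 0 UMIs in Cd209a cells and 81 in Ccr7 cells, where it stood at 175, 505, 945 and 493 CPM. Against a floor of 3 UMIs over the Cd209a cells it was at least 284-fold higher. The calcium channel subunit Cacnb3 (151-fold, 48.2 to 759, from 43 and 3 UMIs), Il4i1 (-5.01), an amino acid oxidase that restrains T cells, the signalling inhibitor Socs2 (-5.53), Anxa3 (-4.62) and Tmem123 (-3.92) were also higher in Ccr7 cells, with no overlap. Relb, an NF-kB subunit of dendritic cell maturation, was at 45.6, 42.7, 55.3 and 122 against 789, 708, 323 and 690.1 CPM (log2 fold change -3.13, SE 0.41, adjusted p = 1.5e-04).

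Ccl22 was at 70.0, 136, 255 and 6.12 CPM in Cd209a cells and 2982, 1718, 919.7 and 32.9 in Ccr7 cells (log2 fold change -3.44, SE 0.67, adjusted p = 0.011), a call lost without the 3-month male library and with barcodes of at least 1000 UMIs. Ccl17, though higher in Ccr7 cells of both male libraries, was not called (-1.46, adjusted p = 0.33). Its 4 values were 497, 233, 818 and 24.5 CPM in Cd209a cells and 1600.4, 3841, 771 and 0 in Ccr7 cells.

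Of 15 type 2 genes 7 were tested, with 3 called higher in Cd209a cells and none lower, and of 6 class II loading genes tested 2 were called higher and none lower. The same limit of the filter holds for these counts. Ccr7 cells also hold no Cd209a by choice, and the 65 cells with both genes were in neither set. Genes that go with Cd209a can thus differ through that choice. Clec10a was at 632, 559, 424 and 532 CPM against 21.9, 0, 0 and 65.7 in Ccr7 cells (log2 fold change 4.27, SE 0.55, adjusted p = 1.4e-04), and Mgl2 was higher by 3.99 and Itgb7 by 3.12. H2-DMa (1.56) and H2-DMb1 (1.89) were higher in 4 of 4 libraries, but both calls were lost without the 22-month male library and with barcodes of at least 1000 UMIs, and that for H2-DMa also without the 3-month male library. Tnfsf9 was higher by 1.12 with all 4 libraries and not called without the 22-month male, the 24-month or the detrusor-only library or with barcodes of at least 1000 UMIs.

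Arhgap15 and Hpgd, both named by the rule, had 171 and 227 UMIs in Cd209a cells and 0 in Ccr7 cells, so they were at least 5.42-fold and 7.2-fold higher against a floor of 3 UMIs over the group. The others were Clec10a, Mgl2 and Ms4a6c (3.89) as highest and, beside Apol7c, Fscn1 and Cacnb3, Nudt17 (284-fold, 46.8 to 11622, from 27 and 1 UMIs) and the class I-like gene H2-M2 (-7.67) as lowest. Dissociation response genes were higher in Cd209a cells in 10 of 19 cases and lower in none (median 1.07). All 6 urothelial genes tested had fold changes above 0, with a median of 1.2 against 0.14 over all genes, and 1 was called, Krt15 (2.04). That call was lost without barcodes rich in non-immune genes or without the 22-month male library. The urothelial list summed to 0 to 3842 CPM in Cd209a and 0 to 2182 CPM in Ccr7 cells. The monocyte list summed to 404 to 19089 CPM over the 7 libraries in Ccr7 cells, with the 2 12-month and the detrusor-only libraries highest, and to 3180 to 8261 CPM in Cd209a cells. Of the 10 T or NK genes 8, Cd3e among them, were at 0 in Ccr7 cells, a check made because naive T cells also carry Ccr7. The list summed to 0 to 429.9 CPM in Ccr7 cells, highest in the detrusor-enriched library, which was not among the 4 tested, and to 15.4 to 252 CPM in Cd209a cells. The fibroblast list summed to 246 to 17588 CPM in Ccr7 cells, highest in the 3-month male library, and to 336 to 8220 CPM in Cd209a cells. The sums of the B and plasma list were 0 to 505 and 0 to 415 CPM. The part of these signals in the result was not tested.

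Ccr7 cells were also set against Xcr1/Clec9a cells, in the same 4 libraries with 36 and 128 cells. These comparisons share cells with those above, so their values are given side by side and not as separate support. Of 638 genes tested 81 were higher and 50 lower in Ccr7 cells, which is 20.5% in either direction, 12.7% higher and 7.84% lower. The count was 83 without the 22-month male and 67 without the 24-month library. Only 12 of 25 genes of the migratory list and 5 of 15 of the type 1 list held enough UMIs to be tested. A gene can pass that filter through the set where it is high (Cacnb3 had 43 UMIs in Ccr7 and 2 in Xcr1/Clec9a cells), so members are given singly.

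Ccl5 was at 14601, 8794, 6214 and 1610.3 CPM in Ccr7 cells and 179, 34.9, 14.1 and 0 in Xcr1/Clec9a cells (log2 fold change 7.40, SE 0.40, adjusted p = 4.2e-07). Fscn1 (7.29), Il4i1 (7.29), Arl5c (6.38) and Cacnb3 (87.3-fold, 22.7 to 744, from 43 and 2 UMIs) completed the 5 highest, and the NF-kB genes Relb (4.69) and Traf1 (3.24) were higher too. The 5 lowest were Ifi205 (51.2-fold, 9.09 to 2033, from 208 and 1 UMIs), Ppt1 (-4.34), Naaa (-3.73), Rab7b (-3.61) and the pore-forming Mpeg1 (-3.17). Irf8 was lower in Ccr7 cells (-2.17). Of 5 class II loading genes tested 2 were higher, H2-DMb2 (1.96) and Ctss (1.28), and 2 lower, H2-DMa (-1.48) and H2-DMb1 (-1.98). Against Cd209a cells, Irf8 was higher in Ccr7 cells (-3.57 for Cd209a over Ccr7 cells). The calls of these 5 genes against Xcr1/Clec9a cells were lost without the 24-month library, and those for H2-DMb2 and Ctss also with no filter on low counts.

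**Figure D4:**
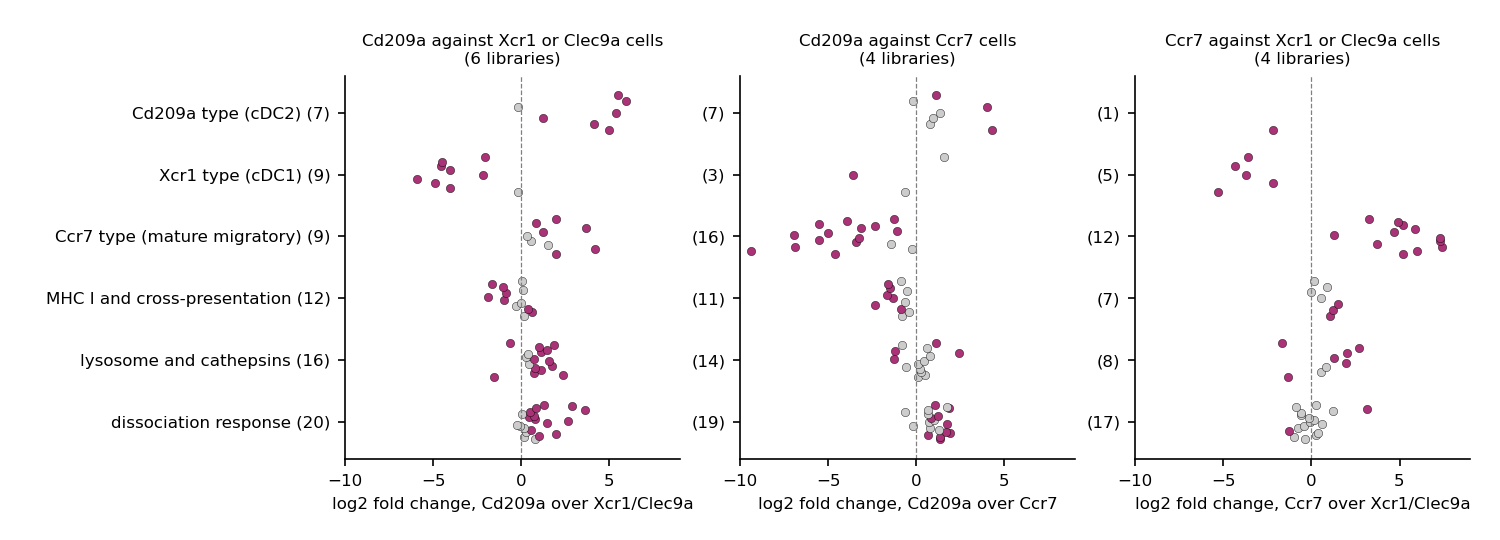
Log2 fold changes of single genes (points, purple where called) in 6 lists for the 3 comparisons between sets of dendritic cells, with the number tested in brackets. For Cd209a over Xcr1/Clec9a cells Mgl2 of the type 2 list lies at 5.97 and Irf8 at -5.89, and for Cd209a over Ccr7 cells Fscn1 of the migratory list lies at -6.94.

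Dendritic cells of older and younger whole bladders were compared over 5 libraries, allowing for whether a pool held males alone or both sexes. No gene of 5940 passed (edgeR quasi-likelihood test, 0% called). At an unadjusted p under 0.05 there were 188, or 3.16%, and DESeq2 called 0 as well, with 31 unadjusted. Gene counts above 0 appeared when a library was left out, with 19 without the first 12-month, 12 without the second 12-month and 6 without the 24-month library. The monocyte attractants Ccl3 and Ccl2 were among the genes called in some of these fits. Ccl3 stood at 112 and 49.4 CPM in older bladders (22 and 24 months) and 355, 112 and 197 in younger ones (3, 12 and 12 months) (log2 fold change -1.61, SE 0.29, adjusted p = 0.3). Ccl2 was at 130.0 and 64.4 against 259, 204 and 247 CPM (log2 fold change -1.38, SE 0.27, adjusted p = 0.3). Both were called without the first or the second 12-month library and with no filter on low counts. Age and the single pools cannot be told apart with so few libraries.

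Dendritic cells of the detrusor libraries (33 and 51 cells) were set against those of the 3 mixed whole-bladder libraries (89, 32 and 92 cells). By its title the detrusor-enriched library, with 51 cells, is a whole bladder enriched for detrusor, and the detrusor below stands for both libraries. Of 6270 genes tested 865 were higher and 906 lower in the detrusor, which is 28.2% in either direction, 13.8% higher and 14.4% lower. The count was 801 without the first 12-month, 952 without the 24-month and 976 without the detrusor-enriched library. The detrusor tables list 31053 genes against 27998 for the whole-bladder ones, and sex, age and pool also differ, so the tissue, the table and the pool cannot be told apart.

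Of 11 class II loading genes tested 7 were lower and 2 higher in the detrusor, with a median of -0.87 against 0.00 over all genes. Of 13 class I and cross-presentation genes 5 were lower and 0 higher, with a median of -0.54. Ctss was at 606 and 763 CPM in the detrusor-only and detrusor-enriched libraries and 1181, 1606 and 1037 in the whole-bladder libraries (log2 fold change -1.19, SE 0.21, adjusted p = 0.0023). H2-Oa (-1.60), H2-Ob (-1.07), H2-DMb2 (-1.63), H2-DMb1 (-0.87) and H2-DMa (-0.77) were lower, the last not without the detrusor-enriched library. B2m was at 791 and 1011 against 2707, 3019 and 2908 CPM (log2 fold change -1.97, SE 0.18, adjusted p = 1.9e-05).

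Ciita, which activates these genes, went the other way. It was at 331 and 219 CPM in the detrusor and 26.2, 20 and 21.9 in the whole-bladder libraries (log2 fold change 3.26, SE 0.28, adjusted p = 1.3e-05). C1q cells of the same libraries showed 114 and 166 CPM against 17.8, 37.0 and 43.3, so the gap was not seen in dendritic cells alone. The immediate early factor Egr1 behaved alike, at 1277 and 967 against 172, 169.9 and 167 CPM in dendritic cells (log2 fold change 2.43, SE 0.20, adjusted p = 1.0e-05) and at 2262 and 1690 against 369, 296 and 325 CPM in C1q cells. B2m in C1q cells was 1254 and 1557 CPM in the detrusor and 3644 to 4566 in the whole-bladder libraries. The list of the dissociation response, which holds Egr1, had 6 of 20 genes higher and 0 lower in the detrusor, with a median of 0.74. It summed to 39191 and 22444 CPM in detrusor dendritic cells and to 12547 to 14820.5 CPM in the whole-bladder ones, without overlap. Its part in the other differences, Egr1, Egr3 and Tnf among them, was not tested.

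Tnf (2.40) and the co-stimulatory receptor Tnfrsf4 (16.7-fold, 5.2 to 85.6, from 30 and 3 UMIs) were higher in detrusor dendritic cells. Zbtb46 (1.99) and Cacnb3 (2.38) were also called, but not without the first 12-month or the detrusor-only library. Il1r2 was lower (-1.53), a call lost without the first 12-month, the 24-month or the detrusor-enriched library. None of 13 chemokines passed. Ccl17 was at 11.7 and 84.6 CPM in the detrusor and 399.8, 33.3 and 461 in the whole-bladder libraries (adjusted p = 0.25, or 0.030 without the second 12-month library), and Ccl22 had an adjusted p of 0.21, which passed (up to 0.047) without either detrusor library.

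Genes of the surrounding tissue moved with this contrast. The 6 smooth muscle genes summed to 793 and 321 CPM in the detrusor and 11.6, 13.3 and 23.3 in the whole-bladder libraries, with 5 of 6 called higher (median 4.91), and in C1q cells to 860.1 and 441 against 48.9, 18.5 and 34.0. Tagln (5.00), an actin-binding protein of smooth muscle, and Acta2 (3.91) were among them. The urothelial genes summed to 0 and 354 CPM in the detrusor and to 3916, 1446 and 1858 in the whole-bladder libraries, with 4 of 11 called lower (median -3.67), among them Sprr1a (-5.65) and Upk2 (-4.08). The call for Upk2 was lost without either detrusor library. Markers of other immune cells were also counted, beside 13.8% higher and 14.4% lower over all genes tested. The macrophage and monocyte lists went both ways, with counts not far from those shares. Of 13 macrophage genes tested 3 were higher and 2 lower (median 0.41), of 8 monocyte genes 2 were higher and 3 lower (median -0.18), and the 1 B and plasma gene tested, Jchain, was lower (55.6-fold, 9.74 to 2221, from 93 and 1 UMIs). Of these calls Mrc1 (2.00) and Ms4a4c (-1.31) held in every alternative run, and each of the others was lost in at least 1. Among 5 plasmacytoid genes tested 1 was lower (median -1.21) and among 3 Langerhans genes 1 was lower (-1.18), with 0 higher in either list. Among 3 genes of type 2 innate lymphoid cells 1 was higher and 1 lower (-1.44). Their part in the other differences was not tested.

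The rule also named Hbb-bs (169-fold, 29.6 to 6735, from 101 and 1 UMIs, not called without the first 12-month or the 24-month library), Egr3 (107-fold, 36.1 to 523, from 192 and 3 UMIs) and Krt80 (56.0-fold, 14.9 to 472, from 67 and 2 UMIs) as higher, and Vsig2 (70.0-fold, 12.3 to 2788, from 117 and 1 UMIs), Srp54b (79.6-fold, 14.0 to 3166, from 133 and 1 UMIs) and Eno1b (56.8-fold, 9.96 to 2268, from 95 and 1 UMIs) as lower. Mia2 gave 151 UMIs in the detrusor and 0 in the whole-bladder dendritic cells (at least 84.1-fold higher against a floor of 3 UMIs over the group). Atp5o gave 0 and 469 (at least 93.5-fold lower), and C1q cells gave none of it in the detrusor either. The detrusor and whole-bladder tables list different genes. For genes at or near 0 on 1 side, such as Mia2, Atp5o, Srp54b and Eno1b, the table, the tissue and the pool cannot be told apart.

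Bulk RNA of dissociated and intact bladder gave a separate view, in libraries that the gates did not use. In bulk RNA fewer cells of a type and less RNA per cell cannot be told apart. Of 16538 genes tested 4620 were higher and 5178 lower after dissociation (edgeR quasi-likelihood test, 3 against 3 libraries), which is 59.2% in either direction, 27.9% higher and 31.3% lower, so a call alone says little about a gene. All 4 class II genes of the gate were higher, H2-Ab1 at 157, 204 and 228 CPM in intact and 367, 526 and 343 in dissociated bladder (log2 fold change 1.17, SE 0.19, adjusted p = 0.0012).

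Of the 5 dendritic gate genes 3 were called. Cd209a was at 18.5, 16.1 and 20.6 CPM in intact and 38, 26.5 and 27.9 in dissociated bladder (log2 fold change 0.86, SE 0.16, adjusted p = 0.0028) and Flt3 at 4.29, 4.52 and 4.77 against 6.51, 9.18 and 6.78 (log2 fold change 0.83, SE 0.17, adjusted p = 0.0034). Ccr7 showed the widest gap, at 1.56, 2.57 and 3.73 against 18.5, 85.9 and 23.3 CPM (log2 fold change 4.11, SE 0.65, adjusted p = 0.0013). Xcr1 (0.25, adjusted p = 0.39) and Clec9a (0.37, adjusted p = 0.14) overlapped between the groups and were not called.

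The second dissociated library held the highest Ccr7 value and was also high in B cell genes, with Cd79a at 0.78, 12.5 and 12.2 CPM in intact and 15, 79.4 and 3.6 in dissociated bladder. Without that library the log2 fold change of Ccr7 was 3.14 (adjusted p = 2.0e-04). The part of B or T cells, which also express Ccr7, was not tested.

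Other genes of the migratory list rose. Of 25 in the list 24 were tested, 18 were higher and 2 lower after dissociation, with a median of 1.34 against -0.03 over all genes tested. Ccl22 was at 3.38, 2.11 and 2.42 CPM in intact and 15.7, 15.6 and 25.3 in dissociated bladder (log2 fold change 2.98, SE 0.27, adjusted p = 8.8e-05), and Ccl17 rose by 2.44. Il12b, a subunit of IL-12 and IL-23, rose by 3.57, Fscn1 by 1.67, Socs2 by 1.41 and Relb by 1.09. Apol7c was not called (0.32, adjusted p = 0.34).

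Of 12 dendritic lineage genes tested 9 were higher and 1 lower (median 0.72). Of 15 type 1 genes 5 were higher and 3 lower (0.38), and of 13 type 2 genes 7 were higher and 0 lower (0.65). Among lineage genes Irf8 rose from 41.6, 40.5 and 42.0 to 85.7, 96.9 and 79.9 CPM (log2 fold change 1.19, SE 0.08, adjusted p = 1.9e-05). Itgax (0.68), Zbtb46 (0.61) and the type 2 gene Mgl2 (0.47) rose less. Clec10a (0.31) and Ciita (0.70) were not called, though Clec10a passed (adjusted p = 0.028) without the third dissociated library. C1qa (0.53) and C1qb (0.53) also rose, while the call for C1qc (0.38) was lost (adjusted p up to 0.080) when any 1 of 5 of the 6 libraries was left out, all but the third dissociated one. Tnfsf9, which also belongs to the immediate response of many cells, rose by 5.20. All 20 genes of the dissociation response rose, with a median of 4.31, and all 6 smooth muscle genes fell, with a median of -3.96. Markers of other cells rose as well. Of the fibroblast genes 9 of 9 tested were higher (median 1.30), of the endothelial genes 5 of 7 (0.91), of the macrophage genes 19 of 26 (0.57) and of the T or NK genes 5 of 10 (1.33), and none of these was lower. Their part in the rise of the dendritic genes was not tested.

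**Figure D5:**
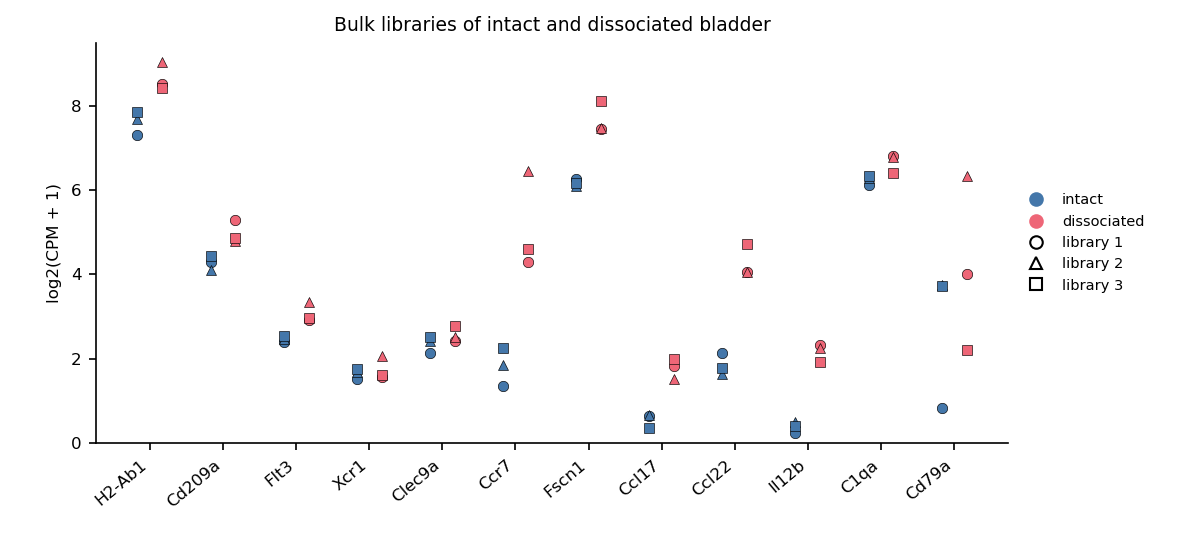
Levels of gate genes, chemokines and Cd79a in the 3 intact (blue) and 3 dissociated (red) bulk libraries as log2(CPM + 1), with the library number as the symbol. Ccr7 runs from 1.56 to 3.73 CPM in intact and from 18.5 to 85.9 in dissociated bladder, and the second dissociated library is highest for both Ccr7 and Cd79a.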

How the data were processed

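Counts were analysed as deposited, with UMIs for each gene and barcode in the cell libraries, UMIs for each gene and spot in the sections, and whole-number read counts for each gene in the bulk libraries. The submitters' processing notes name bcl2fastq, Cell Ranger, Space Ranger, Subread, featureCounts and the mm10 build, but roles, versions and settings were not given in the sources used here. The members and gene lists were chosen with earlier results of these data known.

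Barcodes were gated as described above, and the 26357 genes common to the 7 cell tables (26344 without mitochondrial genes) were used. Raw UMIs were summed over each class in each library with at least 10 cells of a class or 5 of a set. Sums were tested with edgeR 4.0.16 (R 4.3.3), with filterByExpr, TMM scaling and the quasi-likelihood test, and p-values were adjusted over all genes tested. Library was a block where classes or sets of the same libraries were compared. The age model had a term for the sexes in the pool, which also divides the 2 forms of count table, and the detrusor and bulk models had no covariate. Each cell library is a pool of animals. With library as a block, p-values measure how repeatable a difference within libraries was over pools. In the age and detrusor models they set a difference against the spread between pools. The labels do not say how separate the bulk libraries were beyond their animals.

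No doublet caller was run. An alternative removed barcodes whose urothelial, fibroblast, smooth muscle and endothelial genes held 1% or more of UMIs, which applied to 81 dendritic cells. Other alternatives were DESeq2 1.42.0, RLE scaling, no filter, other gates, thinning and leaving out each library. Named genes were the 10 highest and 10 lowest by fold change for dendritic against C1q cells and 5 each for the others, taken among called genes whose mean reached 50 CPM in the higher class and whose direction was the same in every library, Gm and Rik models aside. Genes of the gates and of the lists were named too. On simulated data with 200 genes changed 4-fold, the test recovered 100% for dendritic against C1q cells, 98.5% for Cd209a against Xcr1/Clec9a cells, 79% for Cd209a against Ccr7 cells, 93.5% for Ccr7 against Xcr1/Clec9a cells, 77% for age, 73% for the detrusor and 95% for bulk. Unchanged genes that were called numbered 19, 2, 3, 5, 9, 17 and 18 in that order. The simulated libraries differed only in depth, the changed genes and the fitted spread, which is simpler than the data.

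Reads per bulk library numbered 23083752, 68760791 and 25999123 in intact and 28106085, 27029399 and 24192299 in dissociated bladder. Tables, shares and figures were made with Python 3.11.15, numpy 2.4.6, pandas 2.3.3, scipy 1.17.1 and matplotlib 3.10.9.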

Additional observations from a re-analysis of the deposited data

Results flagged for a closer look

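The tissue sections and the nuclei were not part of any comparison, but dendritic genes gave counts in some of them. In the 4 spatial sections, of males of 22, 22, 14 and 14 months, Cd209a gave 323, 261, 231 and 165 UMIs over all spots. Flt3 gave 46, 66, 32 and 30 UMIs, Xcr1 14, 27, 4 and 12, Clec9a 20, 38, 13 and 14, and Ccr7 32, 77, 44 and 27. All are above the 3 counts that a count of 0 allows. A spot can hold several cells, so these counts are not numbers of dendritic cells. The nuclei library drew on mice of both sexes at 12 months, by its label 2 of each. Of its 3472 nuclei 4 passed the gates used for the cells. Cd209a was found in 3 nuclei and Flt3 in 2, and Xcr1, Clec9a and Ccr7 in 0.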

How the results depend on the processing

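Over the genes named, 2973 of 3146 checks under an alternative kept the direction and the side of the threshold, 151 lost a call, 21 gained one and 1 reversed, Krt15 for dendritic against C1q cells (-0.27 with C1q cells taken without an MHC II minimum). The count for dendritic against C1q cells was 322 with barcodes thinned to 500 UMIs (715 genes tested) and 685 without the library as a replicate block. With no filter on low counts it was 295 for Cd209a against Ccr7 cells, 863 for Cd209a against Xcr1/Clec9a cells and 4 for age. Of the 295 genes 236 were higher and 59 lower in Cd209a cells, against 77 and 84 with the filter. Of the 863 genes 617 were higher and 246 lower, against 325 and 219. DESeq2 called 848 genes for the detrusor. When 1 library was left out, counts ran from 68 to 172 for Cd209a against Ccr7 cells, 67 to 159 for Ccr7 against Xcr1/Clec9a cells, 0 to 19 for age and 801 to 1775 for the detrusor. The older minus younger difference in share then ran from -19.3 to 7.50 points and turned at 4.75 and 2.65 too. The cause of these changes was not tested. An alternative chosen after seeing the data, without genes at 0 in any table compared, left the age count at 0 and kept the detrusor count within 1.5 times. In bulk, the fit with the replicate number as a replicate block called 10011 genes against 9798. The deviations of same-numbered libraries correlated at 0.296, 0.391 and -0.0556. Libraries of unlike number were not correlated, so whether same-numbered libraries form pairs was not tested. The tests of Ccr7 cells rest on 36 cells in 4 libraries.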
